A study of Mus musculus with 6 samples.

Results

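Glycosyltransferases that build mucin-type O-glycans and the outer chains of other surface glycans were compared between epithelial cells of wild-type mice and cells labelled Git2-knockout. Members were chosen by gene symbol alone. They are the Galnt, Gcnt, B3gnt, B3gal, B4gal, Fut, St3gal and St6gal families, which gave 70 genes of 18159 in the table. RNA came from 3 libraries per group, from mouse intestine at an age of 12 days. The titles speak of intestinal epithelial cells, the series' design text calls every sample an enteroid (an epithelial organoid grown from crypts), and the genotype field says knockdown where the titles say knockout. Wild-type animals carried no stated allele, and strain, sex, any treatment and the altered part of Git2 have no entry in the labels. Whether replicates are separate mice or cultures is not stated, so each p-value reflects only how far these libraries scatter, and that scatter may be technical.

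Mucin-type O-glycans begin when a Galnt enzyme attaches GalNAc to serine or threonine in the Golgi. Galactose then gives core 1, Gcnt enzymes add GlcNAc branches, and B3gnt, B3gal and B4gal enzymes extend the chains. Fut and sialyltransferase enzymes cap the ends with fucose or sialic acid. In the gut these glycans make up much of the mass of the mucins in mucus and in the enterocyte surface coat, and their ends serve as attachment sites for microbes and lectins. Part of the same families acts on N-glycans, glycolipids or proteoglycans.

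The libraries held 16284414 to 19106581 estimated reads, of which the 70 genes took 0.320% to 0.343%. Git2 itself was at 22.2, 23.7 and 22.7 CPM (reads per 1000000 reads of a library after TMM scaling) in wild type and at 17.4, 15.5 and 16.8 CPM in the libraries labelled Git2-knockout, so its mRNA was lower without overlap and still present. Knockout-labelled replicate 1 stood apart from the other libraries of its group (chi-square per degree of freedom 7.16 and 5.31, against 1.96 between replicates 2 and 3), and without it 17 members rose and 11 fell. Markers of other cell types moved in the same libraries. In the fibroblast and smooth muscle list 15 of 18 tested genes rose, with a summed level of 79.8 to 83.2 TPM (transcripts per 1000000, a level per transcript length) in wild type and 154 to 166 TPM in the knockout-labelled libraries, and in the endothelial list 16 of 17 rose (27.1 to 27.7 against 59.5 to 68.4 TPM). In the B and plasma cell list 8 of 11 fell (26.3 to 26.6 against 11.8 to 13.3 TPM). In the erythroid list 4 of 5 rose (83.5 to 87.7 against 303 to 329 TPM), in the enteroendocrine list 9 of 18 rose and 3 fell (755 to 764 against 896 to 915 TPM), and in the Paneth list 6 of 11 fell and 2 rose (2592 to 2666 against 2332 to 2629 TPM). In the epithelial identity list 11 of 16 fell and 1 rose (12009 to 12385 against 11789 to 11944 TPM), and in the goblet cell list 9 of 17 fell and 1 rose (6742 to 6925 against 5616 to 5828 TPM). Of 17 suckling enterocyte markers 8 fell and 4 rose (12927 to 13109 against 12990 to 13235 TPM). Of 8 adult enterocyte markers 5 fell and 2 rose (3427 to 3455 against 3231 to 3420 TPM). Of 15 macrophage and granulocyte markers 5 rose and 1 fell, while the summed level was lower (182 to 183 against 163 to 164 TPM). Of 5 tested tuft genes 1 rose and 1 fell, of 5 T cell genes 2 rose and 1 fell, and of 6 neuron and glia genes 1 rose. No gene of the epithelial, goblet, fibroblast or endothelial lists was at 0 in any library, whereas Tnfrsf17 of the plasma cell list and Slc4a1 and Ahsp of the erythroid list were each at 0 in at least 1. The part of these shifts in the differences below was not tested, and in bulk RNA a change in the share of a cell type and a change in RNA per cell cannot be told apart.

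Of the 70 genes, 54 had enough reads to test. In the knockout-labelled libraries 17 rose, 9 fell and 28 did not pass edgeR's quasi-likelihood test (Benjamini-Hochberg adjusted p under 0.05 over 13558 genes). Over all tested genes 29.6% rose and 27.4% fell, 57% in all, so the 31.5% of members that rose lay near the background and the 16.7% that fell lay below it. Groups did not overlap in 33 members, 22 with the knockout-labelled libraries above and 11 below, where 32.3% and 30.6% of all genes did so. The median difference of the tested members was 0.05 on the log2 scale of CPM (knockout-labelled minus wild type), beside 0.02 for all genes. Most called differences were small: 4 of 54 members exceeded 2-fold, where 631 of 13558 genes were called at 2-fold or more. All 4 were upward, in Galnt15, Galntl6, B3galt5 and St6galnac6, each under 2.3 CPM in every library. Of these only B3galt5 had enough reads in both groups, so the filter itself favoured the upward direction of the others. In 47 members reads passed the low-count cutoff (0.562 CPM) in both groups. Galnt15, Galntl6, Gcnt7, B3gnt5, St6galnac6 and St6galnac4 were tested only through the knockout-labelled group and B3gnt4 only through wild type, and without these 7 the counts were 14 rising and 9 falling of 47.

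**Figure D1:**
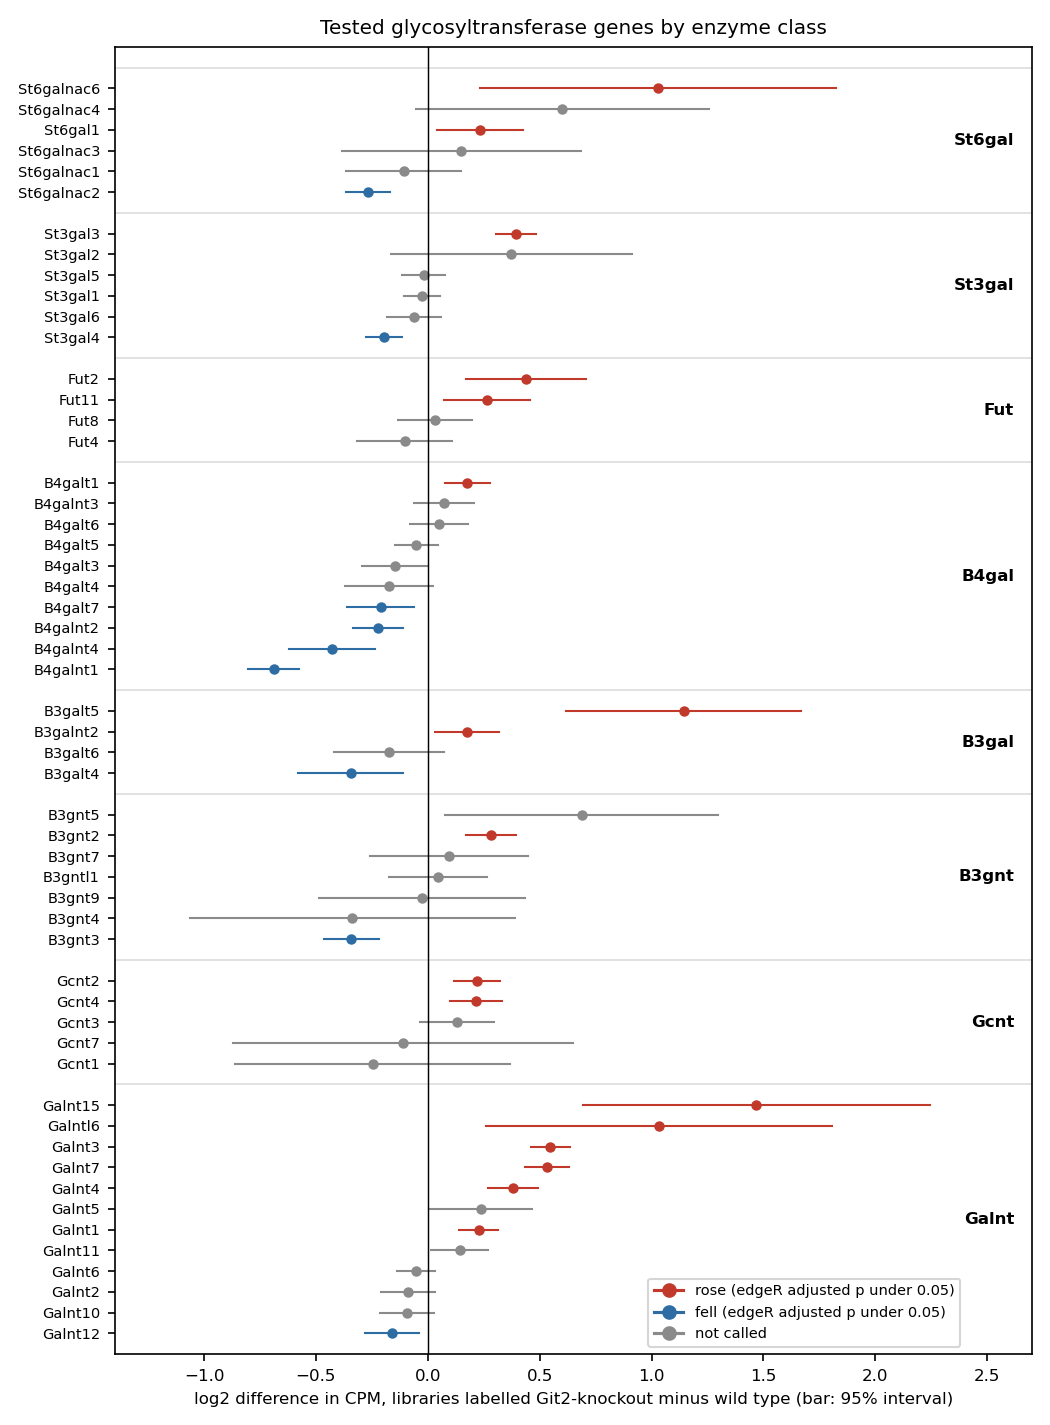
Log2 difference in CPM between libraries labelled Git2-knockout and wild-type libraries (3 each) for the 54 tested members, by enzyme class, with 95% intervals. Red points rose, blue points fell and grey points did not pass the adjusted p of 0.05. B4galnt1 lies lowest at -0.69 and Galnt15 highest at 1.47.

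Many calls depended on transcript length and GC content. The fit was repeated with a smooth trend on length, on GC and on both removed from each library. With both removed 9 members rose and 13 fell, so 40.9% of calls were upward against 65.4% before. Over all genes the upward share moved the same way, to 39.8% from 51.9%. On log2(TPM + 1), on which the median of all genes lay at 0.14, 24 members rose and 4 fell (85.7% upward, beside 75.1% of all calls). Of the 26 calls, 10 held under each of the alternatives that gave a value, 19 for most genes. Galnt3, Galnt7, Galnt15, B3gnt2, B3galt5 and St3gal3 rose under all of them, where Galnt15 is the gene tested only through the group in which it was high, and B3gnt3, B4galnt1, B4galnt4 and St6galnac2 fell under all of them.

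**Figure D2:**
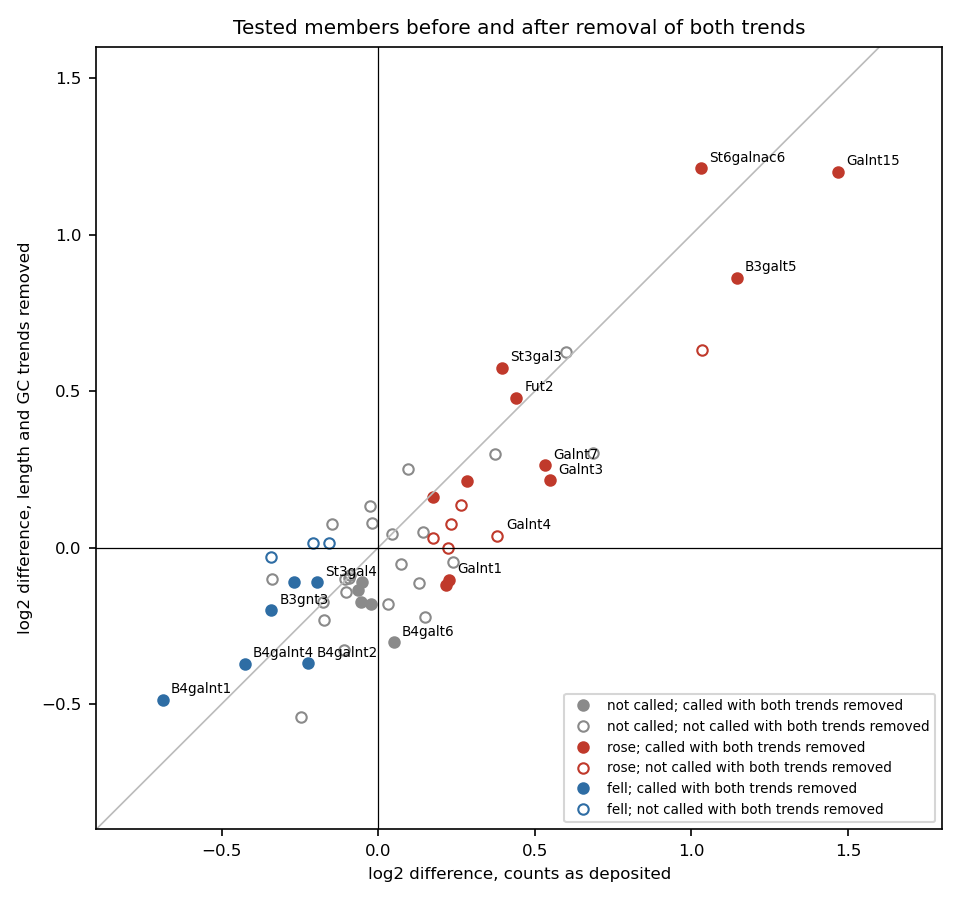
Log2 difference of each tested member with counts as deposited (horizontal axis) and after removal of the length and GC trends (vertical axis); filled points pass the adjusted p of 0.05 on the vertical axis, colours give the call on the horizontal axis, and the grey line marks equal values. Galnt1 and Gcnt4 lie in the lower right, called upward before removal and downward after it.

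Promoter sequence was looked at for the members with the steadiest calls. RefSeq windows of the GRCm38.p6 build (the 250 bases before a transcript start) matched 52 of the 70 members, with 72 windows since a gene can have several starts. Of the 10 steady calls, 5 had a window that no exon of the GENCODE annotation of that assembly touches, and those are printed 5′ to 3′ on the strand of the gene, 3 of genes that rose and then 2 of genes that fell. Capitals mark the motifs searched on both strands: GGGCGG (the GC box of Sp factors, or CCGCCC when read on the other strand), TATAAA (the TATA box), GTTAAT (part of an HNF1 site), CAAAGTCCA (an HNF4 site) and TTTATG (a CDX site), none of which contains another.
Galnt7: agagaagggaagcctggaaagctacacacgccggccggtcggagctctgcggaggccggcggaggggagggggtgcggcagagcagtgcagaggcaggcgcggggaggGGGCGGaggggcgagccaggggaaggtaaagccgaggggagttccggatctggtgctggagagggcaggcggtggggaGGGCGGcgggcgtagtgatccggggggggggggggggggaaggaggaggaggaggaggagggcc
St3gal3: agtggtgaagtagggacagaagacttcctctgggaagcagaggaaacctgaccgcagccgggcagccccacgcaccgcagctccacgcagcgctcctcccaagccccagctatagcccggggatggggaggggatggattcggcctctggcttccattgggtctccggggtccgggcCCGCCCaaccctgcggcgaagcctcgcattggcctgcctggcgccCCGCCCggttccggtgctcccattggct
B3galt5: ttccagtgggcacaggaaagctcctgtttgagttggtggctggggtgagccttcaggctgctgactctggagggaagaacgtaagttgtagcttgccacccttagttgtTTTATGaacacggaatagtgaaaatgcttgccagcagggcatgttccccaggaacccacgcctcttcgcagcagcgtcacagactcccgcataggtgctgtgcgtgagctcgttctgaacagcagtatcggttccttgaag
B3gnt3: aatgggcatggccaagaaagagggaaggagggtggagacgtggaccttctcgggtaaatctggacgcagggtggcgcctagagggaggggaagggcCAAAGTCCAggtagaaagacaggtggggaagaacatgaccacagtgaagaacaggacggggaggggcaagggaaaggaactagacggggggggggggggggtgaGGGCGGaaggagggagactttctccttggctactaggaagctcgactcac
B4galnt4: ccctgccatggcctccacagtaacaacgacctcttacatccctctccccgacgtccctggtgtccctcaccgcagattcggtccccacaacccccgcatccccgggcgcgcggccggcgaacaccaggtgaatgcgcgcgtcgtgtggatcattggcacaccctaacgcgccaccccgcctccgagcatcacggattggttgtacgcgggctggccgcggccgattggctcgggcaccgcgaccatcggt
The windows lie at chr8:57653056-57653305 (minus strand, Galnt7), chr4:118134947-118135196 (minus strand, St3gal3), chr16:96235551-96235800 (plus strand, the first of 3 starts of B3galt5), chr8:71701801-71702050 (minus strand, B3gnt3) and chr7:141060728-141060977 (plus strand, B4galnt4). Galnt7 and St3gal3 hold 2 GC boxes each, B3galt5 a CDX site, B3gnt3 a GC box with an HNF4 site, and B4galnt4 none of the 5 motifs but 30 CpG dinucleotides. GC boxes were found in 35% of the 20 windows of members that rose, 66.67% of the 6 windows of members that fell, 55.17% of the 29 windows of members not called, 48.61% of all member windows and 32.74% of all 32851 windows. The HNF4 site of B3gnt3 is a rare match, present in 0.3835% of all windows and in no other member's. CDX sites stood in 15% of the windows of members that rose, 0 of the 6 of members that fell and 10.76% of all windows. These matches describe letters in a window, and binding was not measured.

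Enzymes that start O-glycans form the Galnt class. Of 18 Galnt genes 12 were tested, and 6 rose (50%) and 1 fell (8.33%), where 29.6% of all genes rose and 27.4% fell. The same shares of all genes stand beside the counts of the other classes below. Galnt15 and Galntl6 among the 6 were tested only through the knockout-labelled group. Summed over the class the level was 513, 508 and 507 TPM in wild type and 630.2, 672 and 653 TPM in the knockout-labelled libraries, a ratio of 1.28 with no overlap (exact permutation test, two-sided p = 0.1, the smallest that 3 against 3 allows). On FPKM, reads per transcript length and library total with no fixed sum, the ratio was 1.17. With both trends removed 3 Galnt genes rose and 2 fell, where 17.7% of all genes rose and 26.8% fell.

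Galnt3, which starts glycans on mucins and on the hormone FGF23, was at 130.4, 130.2 and 133 CPM in wild type and at 193, 194 and 188 CPM in the knockout-labelled libraries. Each knockout-labelled library was above every wild-type one. The log2 difference was 0.55 (SE 0.04, 95% interval 0.46 to 0.63, edgeR adjusted p = 1.84e-08), and 0.21 remained with both trends removed (adjusted p = 1.69e-05). Galnt7 and Galnt4 prefer substrates that already carry a GalNAc and so fill in clusters. Galnt7 was at 109, 110.1 and 102 CPM in wild type and at 160.2, 156 and 149.6 CPM in the other group, again without overlap. Its log2 difference was 0.53 (SE 0.05, edgeR adjusted p = 9.95e-08), and 0.26 with both trends removed. Galnt4 was at 65.5, 66.4 and 59 CPM against 83.7, 81.1 and 83.8 CPM. That difference of 0.38 (SE 0.05, edgeR adjusted p = 1.47e-05) shrank to 0.04 with both trends removed (adjusted p = 0.525). In the annotation Galnt4 shares exon sequence on the same strand with Poc1b, which was not called (log2 difference 0.08), so the split of reads between them is uncertain.

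Galnt1 and Galnt6 were the most abundant members of the class in both groups. Galnt1, a broadly expressed initiating enzyme, was at 197, 199.5 and 201 CPM in wild type and at 239, 236 and 224 CPM in the knockout-labelled libraries. It rose by a log2 difference of 0.23 (SE 0.04, edgeR adjusted p = 0.000191) but lay at -0.10 with both trends removed (adjusted p = 0.0164), so its direction depended on that choice. Galnt6 was at 335, 338 and 349 CPM against 315, 335 and 335 CPM, and its groups overlapped. The difference of -0.05 (95% interval -0.14 to 0.03, edgeR adjusted p = 0.273) did not pass, and with both trends removed it was -0.17 (adjusted p = 5.79e-05). In wild type the ratio of Galnt3 to Galnt6 in TPM was 0.605, 0.598 and 0.591, against 0.951, 0.900 and 0.873 in the knockout-labelled libraries, while Galnt6 stayed the first or second of the class by level. Galnt6 took 24.0% ± 0.414 of the class TPM in wild type and 20.2% ± 0.670 in the other group, and Galnt3 took 14.3% ± 0.0993 and 18.3% ± 0.201 (SD, n = 3 each).

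Galnt15 and Galntl6 were scarce. Galnt15 was at 0.269, 0.320 and 0.319 CPM in wild type and at 0.789, 1.05 and 0.707 CPM in the knockout-labelled libraries, from 5 to 18 reads a library. It rose by 1.47 (SE 0.37, edgeR adjusted p = 0.00279). Galntl6 was at 0.484, 0.641 and 0.373 CPM against 0.789, 1.52 and 0.765 CPM, a difference of 1.03 (SE 0.37, edgeR adjusted p = 0.0237) that was lost without wild-type replicate 1 (adjusted p = 0.0652), without wild-type replicate 3 (0.101) or without knockout-labelled replicate 2 (0.204). Galnt12 was the only member of the class that fell, by a log2 difference of -0.16, and that call was lost without wild-type replicate 1 or 2 or knockout-labelled replicate 2, with adjusted p = 0.102, 0.0517 and 0.0786. It lay at -0.03 with the GC trend removed, at 0.014 with both trends removed and at 0.0036 on log2(TPM + 1) (all-gene median 0.14), and DESeq2 did not call it (adjusted p = 0.0878). Galnt2, Galnt5, Galnt10 and Galnt11 did not pass, at -0.09 to 0.24. Galnt9, Galnt13, Galnt14, Galnt16, Galnt17 and Galnt18 had 0 to 11 reads a library and were not tested.

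**Figure D3:**
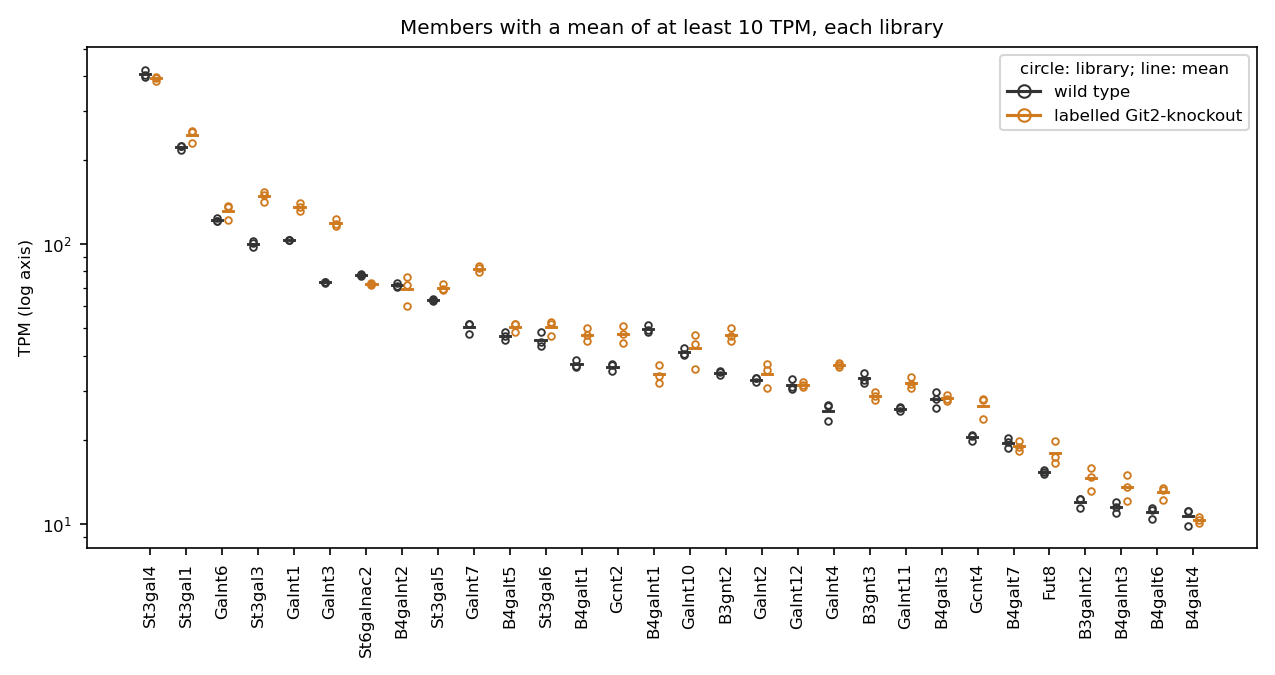
TPM in each of the 6 libraries (circles) with the group mean (lines) for the 30 members with a mean of at least 10 TPM, on a log axis, ordered by level. St3gal4 and St3gal1 lead, and the wild-type and knockout-labelled circles of Galnt3, Galnt7 and St3gal3 are the farthest apart upward, with those of B4galnt1 apart downward.

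Branching enzymes of the Gcnt family add GlcNAc in a side branch. All 5 were tested, 2 rose and 0 fell, and the summed level went from 66.3 ± 1.4 to 85.7 ± 5.96 TPM (SD, n = 3 each), a ratio of 1.29 (1.18 on FPKM) with an exact permutation p = 0.1. Gcnt2, which branches lactosamine chains into the I antigen, was at 77.7, 78.8 and 75.4 CPM in wild type and at 86.1, 94.6 and 89.7 CPM in the knockout-labelled libraries. Its log2 difference was 0.22 (SE 0.05, edgeR adjusted p = 0.00107), and Gcnt4, a core 2 enzyme, had the same size (0.22, SE 0.06, edgeR adjusted p = 0.00332) from 51.6, 51.6 and 50.5 to 55.0, 61.5 and 62.0 CPM. With both trends removed 0 Gcnt genes rose and 1 fell, where Gcnt2 lay at -0.0020 and Gcnt4 at -0.12 (adjusted p = 0.0279). Gcnt3, the mucin enzyme for core 2 and core 4, was at 18.4, 15.7 and 18.1 against 18.7, 19.2 and 19.4 CPM. The groups did not overlap, yet the difference of 0.13 did not pass (95% interval -0.03 to 0.30, edgeR adjusted p = 0.163). Gcnt1 and Gcnt7, under 1.5 CPM, did not pass either. Gcnt2 held 55.1% of the class TPM in wild type and 55.7% in the other group, so the makeup of the class was close in both.

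Of the 9 B3gnt genes, which lengthen chains with GlcNAc, 7 were tested, and 1 rose and 1 fell. B3gnt2, the main enzyme of polylactosamine on N-glycans, was at 44.7, 44.1 and 45.7 CPM in wild type and at 55.5, 56.7 and 51.6 CPM in the knockout-labelled libraries. B3gnt3, which extends core 1 O-glycans, went the other way, from 38.4, 36.7 and 36.5 CPM to 31.0, 28.0 and 29.0 CPM. Neither pair of groups overlapped. The log2 differences were 0.28 for B3gnt2 (SE 0.05, edgeR adjusted p = 0.000259) and -0.34 for B3gnt3 (SE 0.06, edgeR adjusted p = 0.000108), and with both trends removed they were 0.21 and -0.20. In TPM the pair started near each other, at 34.7 ± 0.482 for B3gnt2 and 33.1 ± 1.39 for B3gnt3 in wild type, and ended at 47.4 ± 2.58 and 28.7 ± 0.945. B3gnt2 held 43.0% of the class TPM in wild type and 52.4% in the knockout-labelled libraries, and B3gnt3 held 41.0% and 31.7%. B3gnt6, the core 3 synthase, had 0 to 5 reads a library and B3gnt8 had 3 to 14, so neither was tested. B3gnt4, B3gnt5, B3gnt7, B3gnt9 and B3gntl1 did not pass, at -0.34 to 0.69. B3gnt5, the lacto-series glycolipid enzyme, had the difference of 0.69 with an edgeR adjusted p = 0.0514 at 0.484 to 1.4 CPM.

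Of 7 B3gal genes 4 were tested, 2 rose and 1 fell. B3galt5, which makes the type 1 chains that Lewis and H antigens of the gut are built on, was at 0.807, 0.854 and 0.852 CPM in wild type and at 1.46, 2.23 and 1.88 CPM in the knockout-labelled libraries. It was low in every library, yet the groups stood apart and the log2 difference was 1.14 (SE 0.25, 95% interval 0.62 to 1.67, edgeR adjusted p = 0.000912). B3galt4, the GM1 ganglioside synthase, fell from 7.26, 6.57 and 7.34 CPM to 5.34, 5.45 and 5.89 CPM, a difference of -0.34 (SE 0.11, edgeR adjusted p = 0.0145). The call was lost without wild-type replicate 3 (adjusted p = 0.0534), and the value was -0.03 with both trends removed. B3galnt2, an enzyme of the dystroglycan O-mannose glycan, was at 19.2, 19.7 and 19.4 against 22.0, 22.6 and 21.2 CPM. Its difference of 0.17 (edgeR adjusted p = 0.0349) was lost without any one of the 6 libraries, with adjusted p = 0.0905, 0.0731 and 0.0752 without wild-type replicates 1, 2 and 3 and 0.0952, 0.142 and 0.0603 without knockout-labelled replicates 1, 2 and 3. B3galt6, an enzyme of the proteoglycan linker, did not pass (-0.17, 95% interval -0.42 to 0.07, edgeR adjusted p = 0.215). B3galt1, B3galt2 and B3galnt1 had 0 to 12 reads a library. B3galt1 had 0 reads in each wild-type library and 4, 3 and 5 in the others, and a count of 0 allows up to 3 reads.

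Of the 4 falls among B4gal genes, 3 were in the GalNAc-transferring branch and 1 in the galactose-transferring branch, and the difference between the branches was not tested. All 4 B4galnt genes were tested, and 3 fell and 0 rose, while of 6 tested B4galt genes 1 rose and 1 fell. The summed B4galnt level was 143, 139 and 138 TPM in wild type and 112, 134 and 123 TPM in the knockout-labelled libraries, a ratio of 0.880 with an exact permutation p = 0.1. B4galnt1, the GM2 and GD2 ganglioside synthase, had the largest fall of all members. It was at 56.7, 54.8 and 54.7 CPM in wild type and at 34.7, 35.8 and 32.7 CPM in the knockout-labelled libraries, a wide gap with little spread inside either group. The log2 difference was -0.69 (SE 0.05, 95% interval -0.80 to -0.57, edgeR adjusted p = 3.43e-08), and -0.49 with both trends removed. Slc26a10 overlaps its exons on the opposite strand in the annotation and was near 1 CPM, not called (log2 difference -0.33).

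B4galnt2 makes the Sda antigen of gut mucins and glycolipids, whose inherited differences in mice are known to alter the gut flora. It was at 141, 139.5 and 138 CPM in wild type and at 109, 127 and 123 CPM in the knockout-labelled libraries. The log2 difference was -0.22 (SE 0.05, edgeR adjusted p = 0.00166) and -0.37 with both trends removed, but on log2(TPM + 1) it was -0.05 and not called (adjusted p = 0.592). B4galnt4, which makes GalNAc-GlcNAc ends, fell from 12.2, 12.6 and 13.5 to 10.1, 8.96 and 9.42 CPM, a difference of -0.43 (SE 0.09, edgeR adjusted p = 0.000783). B4galnt3, which does the same reaction, was at 35.2, 35 and 33.8 against 33.3, 39.3 and 36.7 CPM and did not pass (0.07). It was called downward with the length trend removed (-0.21) and upward with the GC trend removed (0.22). In this pair the levels overlapped in one gene and not in the other, and the difference between the genes was not tested.

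B4galt1, the main lactosamine and milk lactose galactosyltransferase, rose from 72.1, 68.7 and 69.5 CPM to 77.2, 81.8 and 78.5 CPM. Its log2 difference of 0.18 (SE 0.05, edgeR adjusted p = 0.00497) was 0.04 with the length trend removed (adjusted p = 0.483) and 0.16 with both removed. B4galt5, a lactosylceramide synthase, was at 92.7, 99.5 and 97.4 against 91.7, 93.4 and 94.6 CPM, with overlap and a difference of -0.05 (95% interval -0.15 to 0.05). B4galt7, an enzyme of the proteoglycan linker, fell by a log2 difference of -0.21, a call that was lost without wild-type replicate 2 (adjusted p = 0.0577) or 3 (0.0635). It lay at -0.04 with the GC trend removed, at -0.04 on log2(TPM + 1) (all-gene median 0.14) and at 0.014 with both trends removed, and DESeq2 did not call it (adjusted p = 0.0781). B4galt3, B4galt4 and B4galt6 did not pass, and B4galt2 had 8 to 15 reads a library and was not tested. The B4gal class as a whole summed to 293.7 ± 0.910 TPM in wild type and 292.6 ± 16.1 TPM in the other group, a ratio of 0.996 (0.913 on FPKM, exact permutation p = 0.9).

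**Figure D4:**
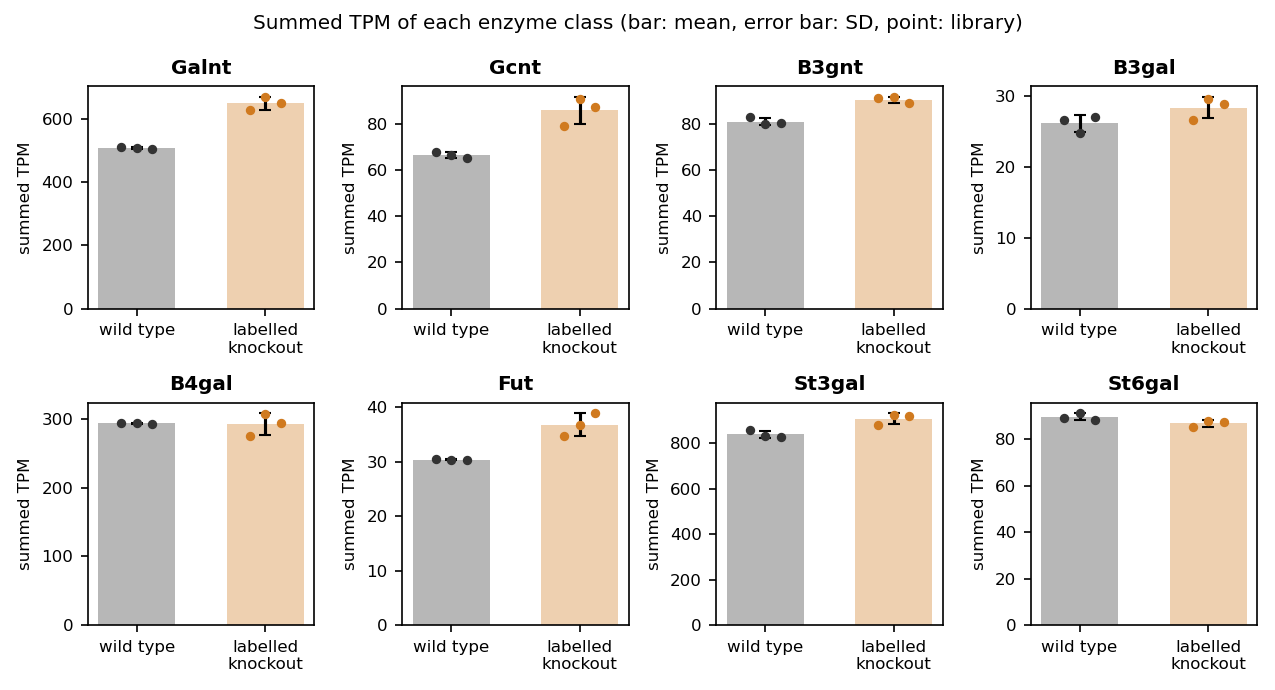
Summed TPM of each enzyme class in 3 wild-type and 3 knockout-labelled libraries (bars: means, error bars: SD, points: libraries). The Galnt, Gcnt, B3gnt, Fut and St3gal points of the groups stand apart with knockout-labelled above, the B4gal and B3gal points overlap, and the St6gal points stand apart with knockout-labelled below.

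Fucosyltransferases were low as a class, at 30.4 ± 0.0985 TPM in wild type and 36.8 ± 2.13 TPM in the knockout-labelled libraries. Of 7 genes 4 were tested, 2 rose and 0 fell. Fut2 makes the H antigen of the gut epithelium, a sugar that bacteria feed on and that rises at weaning under microbial signals in mice. It was at 3.66, 3.90 and 4.26 CPM in wild type and at 5.10, 5.57 and 5.36 CPM in the knockout-labelled libraries, without overlap. The log2 difference was 0.44 (SE 0.13, edgeR adjusted p = 0.0073) and 0.48 with both trends removed, but DESeq2 did not call it (adjusted p = 0.105). Fut11 was at 9.58, 9.29 and 9.90 against 11.3, 12.4 and 10.8 CPM, a difference of 0.26 (edgeR adjusted p = 0.0211) that was lost without wild-type replicate 1 (adjusted p = 0.0552) or 2 (0.0815) or knockout-labelled replicate 2 (0.114). Fut8, the core fucosyltransferase of N-glycans, took 50.5% of the class TPM in wild type and 48.6% in the other group. Its groups overlapped at 18.3, 19.5 and 19.4 against 19.2, 17.9 and 21.3 CPM, a difference of 0.03 that was -0.26 with the GC trend removed (adjusted p = 0.0135). Fut4, a Lewis x enzyme, overlapped too (-0.10, 95% interval -0.31 to 0.11). Fut1, Fut7 and Fut10 had 0 to 10 reads a library.

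Sialyltransferases of the St3gal family were the most abundant class, at 839 ± 15.4 TPM in wild type and 907 ± 24.6 TPM in the knockout-labelled libraries. The ratio of 1.08 turned to 0.991 on FPKM, so no direction is given for the class. All 6 were tested, 1 rose and 1 fell. St3gal3 and St3gal4 both cap lactosamine chains with sialic acid, St3gal3 with a preference for type 1 chains and St3gal4 for type 2 chains. St3gal3 was at 111, 115 and 116 CPM in wild type and at 147, 153 and 149 CPM in the knockout-labelled libraries. St3gal4, the most abundant member of all, was at 438, 423 and 429 CPM and at 376, 368 and 381 CPM. Each gene separated the groups completely, in opposite directions. The log2 differences were 0.40 for St3gal3 (SE 0.04, edgeR adjusted p = 9.63e-07) and -0.20 for St3gal4 (SE 0.04, edgeR adjusted p = 0.00031). With both trends removed they were 0.57 and -0.11. On log2(TPM + 1) St3gal4 was not called (-0.05, adjusted p = 0.215), where the median of all genes lay at 0.14. In wild type the ratio of St3gal4 to St3gal3 in TPM was 4.31, 3.87 and 3.97, against 2.71, 2.56 and 2.64 in the knockout-labelled libraries (exact permutation test, two-sided p = 0.1).

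St3gal1, the core 1 sialyltransferase, was second in level among all members, at 616, 621 and 605 against 583, 608 and 620.2 CPM. Its groups overlapped, and the difference of -0.02 (95% interval -0.10 to 0.06, edgeR adjusted p = 0.604) was called downward with both trends removed (-0.18, adjusted p = 1.66e-05) and upward on log2(TPM + 1) (0.14, adjusted p = 0.0169). On that last scale the median of all genes lay at 0.14 too. St3gal5, the GM3 synthase from which most gangliosides derive, was at 68.6, 68.4 and 67.8 against 67.7, 67.4 and 67.0 CPM. These are close to equal, with a difference of -0.02 and a 95% interval of -0.12 to 0.08, beside the fall of the next ganglioside enzyme B4galnt1. On log2(TPM + 1) St3gal5 was called upward (0.14, adjusted p = 0.0107), again at the level of the all-gene median. St3gal2 and St3gal6 did not pass.

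The St6gal class, with the St6galnac genes, lay at 89.7 ± 1.51 TPM in wild type and 86.9 ± 1.43 TPM in the knockout-labelled libraries. Of 7 genes 6 were tested, 2 rose and 1 fell. St6galnac2, which sialylates the GalNAc of core 1 glycans, made up 86.6% of the class TPM in wild type and 83.0% in the other group. It was at 74.8, 77.1 and 76.5 CPM in wild type and at 64.6, 61.9 and 63.2 CPM in the knockout-labelled libraries, a gap larger than the spread. The log2 difference was -0.27 (SE 0.05, edgeR adjusted p = 0.000136), and -0.11 with both trends removed (adjusted p = 0.0282). St6gal1, the sialyltransferase of N-glycans, was at 11.0, 10.6 and 10.2 against 11.6, 13.7 and 12.2 CPM. Its difference of 0.23 (edgeR adjusted p = 0.0393) was lost without wild-type replicate 1 (adjusted p = 0.0573), 2 (0.0958) or 3 (0.119) and without knockout-labelled replicate 2 (0.212) or 3 (0.0769). St6galnac6, a ganglioside enzyme, had 5 to 17 reads a library and a difference of 1.03 (edgeR adjusted p = 0.0275) that was lost without wild-type replicate 2 (adjusted p = 0.0684) or 3 (0.106) or knockout-labelled replicate 2 (0.145). St6galnac1, which makes the sialyl-Tn antigen of goblet mucins, was at 6.4, 7.69 and 5.85 against 6.07, 6.03 and 6.42 CPM and did not pass (-0.11, 95% interval -0.36 to 0.15). St6galnac3 and St6galnac4 did not pass, and St6galnac5 had 3 reads in 1 library and 0 in the others.

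The proteins and sugars these enzymes work on were read from lists of the same pathway. Each count stands beside 29.6% of all genes rising and 27.4% falling. Those shares were 22.3% and 31.1% with the length trend removed and 17.7% and 26.8% with both removed. Of 12 tested mucins and mucin-like proteins 3 rose and 1 fell, a count that was 0 and 5 with the length trend removed and 1 and 4 with both removed. Muc2, the gel-forming mucin of goblet cells, was at 79.8 TPM in wild type and 88.5 TPM in the knockout-labelled libraries, with a CPM difference of -0.01 on the log2 scale (edgeR adjusted p = 0.809). It was called downward with the length trend removed (-0.48, adjusted p = 1.98e-06) and with both trends removed (-0.38, adjusted p = 0.00079), and upward on log2(TPM + 1) (0.15, adjusted p = 0.0486). That last value lay near the median of all genes on the same scale (0.14). The fall was in Muc13 (-0.08), whose call was lost without wild-type replicate 1 (edgeR adjusted p = 0.0989) or 2 (0.18) or knockout-labelled replicate 3 (0.0862). Muc13 lay at -0.15 with both trends removed (adjusted p = 4.17e-05). The rises were in Dag1 (0.19, but -0.064 with the length trend removed, adjusted p = 0.114), Podxl (0.16) and Muc3a (0.15), of which Podxl was lost without wild-type replicate 3 or knockout-labelled replicate 2 or 3 (edgeR adjusted p = 0.0839, 0.0852 and 0.0762). Muc3a was lost without wild-type replicate 2 or 3 or knockout-labelled replicate 2 or 3 (0.106, 0.116, 0.0522 and 0.107). Muc3, a separate gene of the list, was not called (-0.095, edgeR adjusted p = 0.165). It was called downward with both trends removed (-0.53, edgeR adjusted p = 6.61e-13).

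Core 1 synthase, C1galt1, which acts right after the Galnt enzymes, rose by 0.69 (SE 0.07, edgeR adjusted p = 6.61e-07) and by 0.40 with both trends removed. Its chaperone C1galt1c1 was at 52.8 TPM in wild type and 63.8 TPM in the other group and did not pass (0.11, edgeR adjusted p = 0.11). Its direction turned with the setting, at 0.25 with the length trend removed (adjusted p = 0.000209), 0.27 on log2(TPM + 1) (0.000697), -0.38 with the GC trend removed (6.63e-05) and -0.14 with both removed (0.0275). In that list of 8 tested genes 3 rose and 2 fell, with A4gnt, the GlcNAc cap of gland mucins, at 0.94 and the Notch-modifying Rfng at -0.34 (-0.097 with both trends removed, adjusted p = 0.128). Of 14 tested N-glycan branching and trimming genes 10 rose and 3 fell, 71.4% rising beside 29.6% of all genes. The rises included the mannosidases Man2a1 (0.52) and Man1a2 (0.33) and the endomannosidase Manea (0.73). With the length trend removed that count was 4 and 5, where 22.3% of all genes rose and 31.1% fell, and Man1a2 lay at -0.04. With the GC trend removed the count was 8 and 3, where 20.9% of all genes rose and 26% fell. With both trends removed it was 6 and 4, where 17.7% of all genes rose and 26.8% fell. Of 2 tested polysialic and ganglioside sialyltransferases St8sia4 rose (0.57), though it lay at -0.39 with both trends removed (adjusted p = 0.0223).

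The list of genes that make and carry GDP-fucose, the donor of the Fut enzymes, leaned downward. It also held Pofut1 and Pofut2, fucosyltransferases that use GDP-fucose. Of its 13 tested genes 11 fell and 2 rose, 84.6% falling beside 27.4% of all genes. Among the falls were Gfus, which completes the synthesis (-0.52, and -0.21 with both trends removed), and the putative carrier Slc35c2 (-0.46, and -0.22). Pofut2 fell too (-0.28), but with both trends removed it lay at -0.065 and was not called (edgeR adjusted p = 0.3455). The rises were the salvage enzyme Fpgt (0.55, but 0.07 with both trends removed, adjusted p = 0.274) and Pofut1 (0.16). The Pofut1 call was lost without wild-type replicate 2 or knockout-labelled replicate 2 or 3. With both trends removed 7 fell and 0 rose. Of 11 genes of sialic acid synthesis and editing 5 fell and 3 rose, with falls in the synthase Nans (-0.57) and in Renbp (-0.48) and a rise in the acetylating enzyme Casd1 (0.47). UDP-sugar genes split evenly, 6 up and 6 down of 20, with the Golgi UDP-GlcNAc carrier Slc35a3 at 0.56 and Uap1l1 at -0.35. Of 11 sulfation genes 1 rose, the sulfate donor synthase Papss2 (0.37), and 2 fell, Gal3st2 (-0.27) and the carrier Slc35b2 (-0.28, and -0.01 with both trends removed).

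On the reading and removing side, 7 of 11 tested galectins and lectins fell and 1 rose, 63.6% falling beside 27.4% of all genes, and with both trends removed 5 fell and 3 rose. Lgals2 (-0.67, and -0.23 with both trends removed), Clec2h (-0.45) and the mucus lectin Zg16 (-3.41) had the smallest p, Zg16 at 25.7 TPM in wild type and 2.7 TPM in the knockout-labelled libraries. Of 15 hydrolases of glycans 5 rose and 7 fell, with rises in the lysosomal enzymes Galc (0.52) and Gla (0.27). With both trends removed 7 rose and 3 fell.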

How the data were processed

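Poly(A) RNA of 3 wild-type libraries and 3 labelled Git2-knockout was read from 1 deposited table of 18159 genes. Groups and replicate numbers came from the sample titles. Per the submitters' processing notes HISAT, Bowtie2, RSEM and the GRCm39 build were used, while the strandedness and gene models of the counting are not named in the labels or headers used here. Values are estimated counts per the file headers. The authors also deposited FPKM and TPM for each library, and their 6 columns of group averages were not used.

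Estimated counts were rounded and compared in R 4.3.3 with edgeR 4.0.16 (filterByExpr, TMM, robust glmQLFit and glmQLFTest, two-sided, no covariates), with Benjamini-Hochberg adjustment over 13558 genes. Standard errors are the log2 difference over the square root of F. Levels of different genes were compared and summed in TPM, with exact permutation tests over 20 splits. Length was implied by counts and FPKM (99.9% of tested genes, 54 of 54 members), GC came from GENCODE transcripts of GRCm38 (98.6%, 54 of 54), and trends were removed per library by loess (span 0.5). Other alternatives were RLE, upper-quartile and library-total scaling, DESeq2 1.42.0, limma 3.58.1 (voom, and trend on log2(TPM + 1)), a non-robust fit, no filter, 5 CPM in 3 libraries, the replicate number as a block and each library left out. Replicates differed by more than counting noise (chi-square per degree of freedom 1.60 to 7.16, between groups 30.1 to 42.8). On data simulated for this comparison with 13432 genes, edgeR recovered 62.5% of 1.25-fold, 87.8% of 1.5-fold and 96% of 2-fold changes. The simulation changed 48 to 50 genes at each fold and held no length or GC trend, whereas 57% of genes were called here. These rates therefore need not hold for the real libraries.

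Members and lists were chosen with earlier results of these data known. Values are given per class for up to 4 called members with the smallest p, the 3 with the highest TPM and any called 2-fold change, and per list for up to 3 called genes with the smallest p. A few genes that this rule names are not reported here. Values of Muc2, Muc3, Muc13, C1galt1c1, Pofut1, Pofut2, St3gal5, St6galnac1, B3gnt5, B4galnt3, Poc1b, Slc26a10, Galnt12, B4galt6 and B4galt7 were added after they were seen. Exon overlaps came from GENCODE M21. Of the 26 called members, 13 share exon sequence with another annotated gene, 5 with a coding one, and without a stated strand setting those reads cannot be told apart.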

Additional observations from a re-analysis of the deposited data

How the results depend on the processing

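Of the alternatives for the count of members called, scaling, voom, a non-robust fit, no filter and 5 CPM in 3 libraries gave 14 to 20 rising and 8 to 10 falling. DESeq2 gave 11 rising, the length trend removed 9 rising and 14 falling, the GC trend removed 11 rising, both trends removed 9 rising, and TPM 4 falling. Over all genes 1894 fell on TPM and 2402 rose with both trends removed, and the cause was not tested. Leaving out 1 library gave 14 to 17 members rising and 7 to 11 falling, and 3430 to 4082 genes rising and 3150 to 4261 falling. Of the 26 called members 15 kept their call with both trends removed, 15 with the length trend and 16 with the GC trend removed, and 5 others were called with both removed.

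Some genes named in the report were called and turned in direction, by log2 difference, or were not called and were called the other way by an alternative. They are given here, beside the turns given there for Galnt12, B4galt7, B4galnt3, C1galt1c1, St3gal5 and Muc2. Uncalled genes that changed sign without such a call, among them Galnt6, Gcnt3, B4galt5, Fut4 and St6galnac1, are left out. With both trends removed Podxl lay at -0.066, Man1a2 at -0.12, Pofut1 at -0.046, Galnt1 at -0.10, Gcnt2 at -0.0020, Gcnt4 at -0.12 and St8sia4 at -0.39. With the length trend removed Podxl lay at -0.087, Man1a2 at -0.038, Pofut1 at -0.105, Dag1 at -0.064 and Gcnt4 at -0.018. With the GC trend removed Galnt1 lay at -0.046, St8sia4 at -0.091 and Fut8 at -0.26. B4galt6, not called at 0.05, was called downward with the length trend removed (-0.21, edgeR adjusted p = 0.00502). It was also called downward with both trends removed (-0.30, edgeR adjusted p = 0.000262). On log2(TPM + 1), where the median of all genes lay at 0.14, St3gal1 lay at 0.14 and Muc13 at 0.077.

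Class sums in FPKM gave knockout-labelled over wild-type ratios of 1.17 (Galnt), 1.18 (Gcnt), 1.02 (B3gnt), 0.994 (B3gal), 0.913 (B4gal), 1.11 (Fut), 0.991 (St3gal) and 0.888 (St6gal). Leaving out 1 library gave TPM ratios of 1.26 to 1.30 (Galnt), 1.255 to 1.34 (Gcnt), 1.11 to 1.13 (B3gnt), 1.06 to 1.12 (B3gal), 0.970 to 1.02 (B4gal), 1.18 to 1.246 (Fut), 1.07 to 1.10 (St3gal) and 0.961 to 0.978 (St6gal).

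Deviations of same-numbered libraries from their group means had correlations of 0.041, -0.0011 and 0.050. The labels state no pairing by number, and with 3 libraries per group these values cannot decide whether there was one. With the replicate block 16 members rose and 9 fell, and 3863 and 3578 genes over the table.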
